A study of Homo sapiens with 6 samples.

Results

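The genes described here make cholesterol and fatty acids, or control and use them. There are 34 of them, taken by name from a list of known pathway genes, out of 20461 genes with an Ensembl identifier in the deposited tables. They fall into 5 groups, with 7 genes of the mevalonate pathway, 11 of squalene and the sterol ring, 5 that control the SREBP transcription factors, 4 of sterol transport and LXR target genes, and 7 of fatty acid synthesis. Reads were counted for all 34, and 33 passed the filter on low counts. ABCG1, a cholesterol exporter gene, had 0 counts in all 6 libraries, where the limit of 3 counts that 0 allows would have been 0.0915 to 0.109 CPM (counts scaled to library size).

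ARPE-19, an established cell line from human retinal pigment epithelium, was profiled by RNA sequencing to ask which transcripts differ when the scaffold protein PDZK1 is overexpressed. The control group (3 libraries) carried a control lentivirus and the PDZK1 group (3 libraries) carried a PDZK1 overexpression lentivirus, and both were infected at a multiplicity of 10. Both were selected with 4 µg/ml puromycin, grown with 10% fetal bovine serum and kept in 37.5 mM glucose for 48 h, so high glucose, virus and selection were common to all cells. Serum brings lipoprotein cholesterol into the medium of both groups, and the labels do not say that replicates came from separate infections, so p-values measure only the spread between these libraries.

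Cells sense their cholesterol in the endoplasmic reticulum. When it is low, SCAP escorts the SREBP precursors to the Golgi, where they are cut, and the freed factors switch on genes of sterol and fatty acid synthesis, while INSIG proteins hold SCAP back when sterol is plentiful. Oxysterols made from excess cholesterol act through LXR, which raises the exporters ABCA1 and ABCG1 and MYLIP, a ligase that removes lipoprotein receptors. The retinal pigment epithelium takes up lipid with photoreceptor debris and circulating lipoproteins and hands much of it on.

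Upstream sequences of 3 genes are shown because SREBF2 was the only member past the threshold, and because MVD and SCD were among those with the widest spread between the control libraries. Of the 34 genes, 29 had a RefSeq promoter window (GRCh38.p14, 250 bases before to 50 after the start). Both strands were searched for TCACNCCAC, the core of a sterol regulatory element, and for CCAAT, the box bound by NF-Y, a factor that acts beside SREBP at many sterol genes. Letters of a match are in capitals, and ATTGG is CCAAT on the other strand. Each stretch ends before the first exon of the gene in GENCODE release 29, and that of SREBF2 overlaps an exon of the antisense gene SREBF2-AS1.
SREBF2, chr22:41832855-41833078, plus strand, bases -250 to -27 from the RefSeq start: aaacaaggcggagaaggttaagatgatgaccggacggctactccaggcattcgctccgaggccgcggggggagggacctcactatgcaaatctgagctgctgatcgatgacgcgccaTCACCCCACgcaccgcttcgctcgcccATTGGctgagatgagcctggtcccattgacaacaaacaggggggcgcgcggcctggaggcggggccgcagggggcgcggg
MVD, chr16:88663162-88663341, minus strand, bases -250 to -71: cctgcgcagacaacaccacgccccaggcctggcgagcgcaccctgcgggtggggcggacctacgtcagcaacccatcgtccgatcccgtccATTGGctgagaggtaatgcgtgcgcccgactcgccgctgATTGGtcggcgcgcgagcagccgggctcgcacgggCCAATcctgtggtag
SCD, chr10:100346983-100347123, plus strand, bases -250 to -110: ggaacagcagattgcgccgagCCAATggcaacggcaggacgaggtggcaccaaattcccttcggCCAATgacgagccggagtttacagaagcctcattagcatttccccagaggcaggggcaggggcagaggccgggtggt
The SREBF2 stretch held the sterol element core at bases -133 to -125 and a CCAAT box at bases -106 to -102, with no overlap between them. The MVD stretch held 3 CCAAT boxes and the SCD stretch held 2. Over whole windows, SREBF2 alone of the 29 members (3.45%) held the core, against 1.39% of 27305 genes. A CCAAT box lay in 21 of the 29 (72.4%), against 39.7% of all genes. These are matches of letters and were not tested as binding sites.

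The libraries held 27970618 (control replicate 3) to 32804567 counts. PDZK1 itself ranged over 0.583 to 0.834 CPM in control and 77.5 to 94.2 CPM in PDZK1 (log2 fold change 7.03, SE 0.13, edgeR adjusted p 8.16e-09), which checked the labels. On the second principal component control replicate 3 (-21.6) lay far from the other controls (11.3 and 10.2), with the PDZK1 libraries between -8.98 and 6.78. Epithelial and pigment epithelial markers were present in part, with KRT8 at 1073 to 1221 CPM, OTX2 at 57.0 to 76.2 CPM and MITF at 35.4 to 46.5 CPM. Differentiation markers were low, with TTR at 0 in every library, TYR at 0 to 2 counts and PMEL at 1.89 to 3.11 CPM. BEST1 was at 358 CPM in PDZK1 replicate 1 and at 4.32 to 5.60 CPM in the other libraries. Summed markers of fibroblasts were at 67.8 to 81.4 CPM in control and 82.3 to 90.3 CPM in PDZK1, mostly PDGFRB, with COL1A2 at 0. Those of leukocytes were at 131 to 160 CPM against 123 to 127 CPM, nearly all CD68, with PTPRC at 0. Those of endothelium were at 0 to 0.550 CPM against 0.568 to 0.687 CPM, with CDH5 at 0. The part of these markers in the results was not tested, and in bulk RNA fewer cells of a type and less RNA per cell cannot be told apart.

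With all 6 libraries, the levels of the 33 genes differed little between the groups. Only SREBF2 passed the threshold of an edgeR adjusted p under 0.05, and it was lower, against 3.83% of 13645 genes called in either direction 2.41% called lower and 1.41% called higher. Fold changes are given as log2 of PDZK1 over control. They lay below 0 in 29 of the 33 genes, against 6837 of 13645 genes tested, and above 0 in HSD17B7, SC5D, DHCR7 and MYLIP. Most of the 33 genes moved together between libraries, so the 29 are not independent, and several changed sign between fits. The median fold change was -0.066, against -0.00025 over all genes tested. The median size without sign was 0.073, against 0.085 over all genes. An unadjusted p under 0.05 was reached by 4 genes, all lower (SREBF2, ABCA1, FADS1 and SREBF1), where 9.37% of all genes did so in that direction. The groups did not overlap in 2 genes, SREBF2 and ABCA1, both lower, and in 0 genes higher, where 12.3% of all genes were lower and 11.6% higher without overlap. The 95% interval excluded a 1.5-fold change in 30 of the 33 genes, the exceptions being MVD, MYLIP and ABCA1, and it excluded a 1.2-fold change in 16. These counts turned on control replicate 3. Without it 12 of the 33 genes were called, all lower, against 3.81% of all genes called lower. Calls over all genes also rose without it, to 6.32% in either direction, as described further on.

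**Figure D1:**
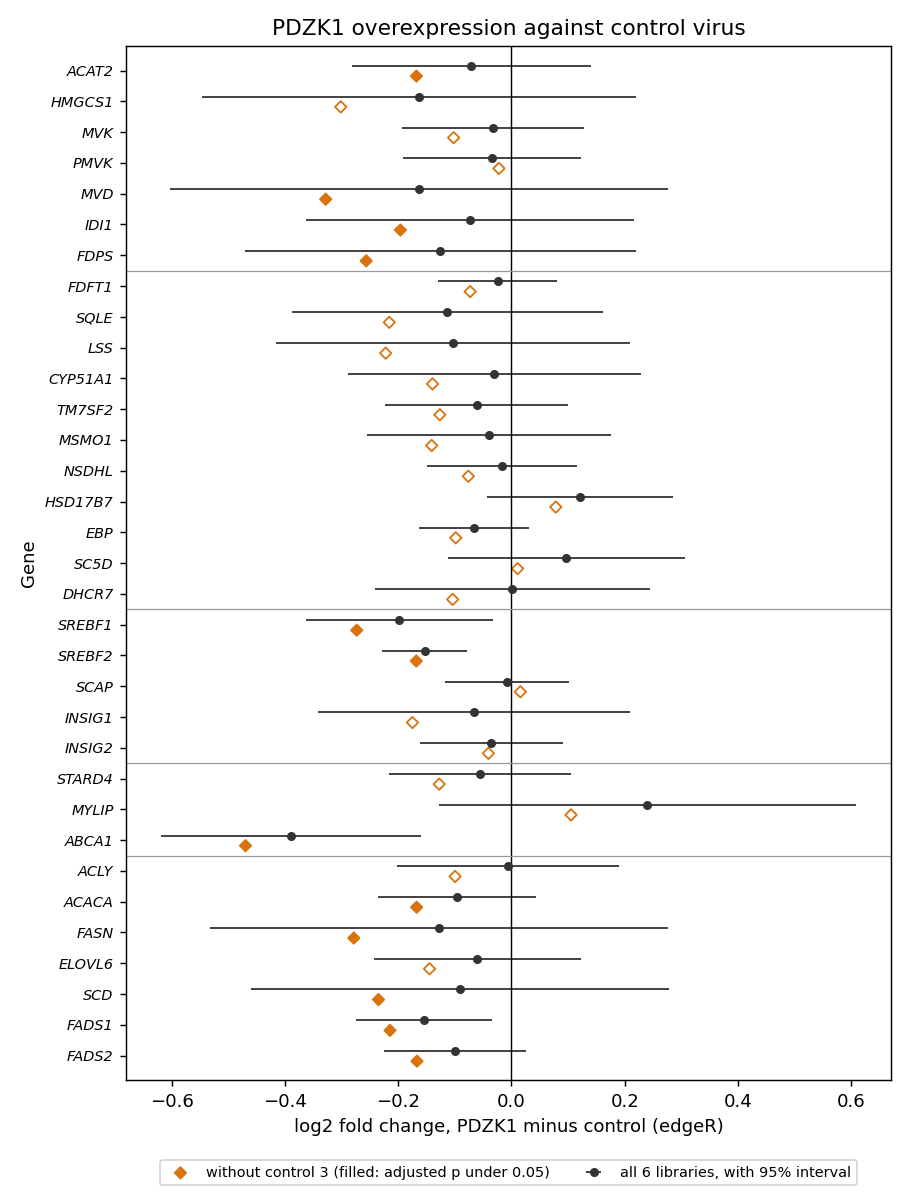
Log2 fold change of each of the 33 tested genes (PDZK1 minus control, edgeR), ordered by role, with black points and bars for all 6 libraries and their 95% intervals, and orange diamonds for the fit without control replicate 3, filled where the adjusted p was under 0.05. With all libraries 1 gene (SREBF2) passed the threshold, and without control replicate 3 the points moved to a median of -0.14 and 12 diamonds are filled. Without control replicate 3, 3.81% of all genes were called lower.

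The genes that control SREBP come first. SREBF2 (ENSG00000198911, chromosome 22, 41833079 to 41907308) encodes SREBP-2, the factor that drives sterol synthesis. Its level was 456, 447 and 438 CPM in the control libraries and 407, 397 and 402 CPM in the PDZK1 libraries. All PDZK1 libraries lay below all control libraries, and control replicate 3 was close to the other controls here. SREBF2 fell by 0.15 on the log2 scale (SE 0.034, 95% interval -0.23 to -0.078, edgeR adjusted p 0.0367). Per length, the level was 78.5 ± 1.79 FPKM in control and 71.3 ± 0.917 FPKM in PDZK1 (SD, n = 3 each; FPKM are fragments per kilobase of transcript in a library scaled to a common depth). The call was not kept when any library other than control replicate 3 was left out (adjusted p 0.119 to 0.150), nor on FPKM (0.136 to 0.141) or with library totals as the only scaling (0.0601), while the fold change stayed between -0.17 and -0.14. SREBF2-AS1 overlaps its exons on the other strand, and the strand used in counting is not given in the sources used here.

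SREBF1 (ENSG00000072310, chromosome 17, 17810399 to 17837002) encodes SREBP-1, which favours fatty acid genes. It stood at 65.2, 68.9 and 56.8 CPM in the control libraries and at 58.5, 54.6 and 53.3 CPM in the PDZK1 libraries. Control replicate 3 lay below PDZK1 replicate 1, so the groups overlapped. Its log2 fold change of -0.20 did not pass the threshold (SE 0.074, 95% interval -0.36 to -0.033, edgeR adjusted p 0.195), and without control replicate 3 it was -0.27 (adjusted p 0.0179). RAI1 overlaps SREBF1 on the other strand.

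The proteins that hold or release the SREBP precursors showed no called difference. SCAP, the escort, stood at 70.8, 75.7 and 77.0 CPM in control and at 76.1, 74.6 and 71.5 CPM in PDZK1 (log2 fold change -0.0084, SE 0.049, 95% interval -0.12 to 0.10, edgeR adjusted p 0.956). INSIG1, a retention protein whose gene is itself an SREBP target, stood at 178, 182 and 141 CPM in control and at 161, 149 and 169 CPM in PDZK1 (-0.066, SE 0.11, 95% interval -0.34 to 0.21, adjusted p 0.826). All PDZK1 values of INSIG1 fell between control replicate 3 and the other controls. INSIG2, its relative that is less tied to SREBP, stood at 53.3, 51.2 and 51.8 CPM in control and at 49.7, 54.2 and 48.4 CPM in PDZK1 (-0.036, SE 0.056, 95% interval -0.16 to 0.090, adjusted p 0.806). In SCAP and INSIG2, control replicate 3 lay within 0.073 log2 units of the other controls, unlike in INSIG1, where it was 0.36 lower.

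Among the transport and LXR target genes, ABCA1 differed most in size. ABCA1 (ENSG00000165029, chromosome 9, 104781002 to 104928237) exports cholesterol to lipid-poor apolipoprotein. Its level was 56.8, 59.6 and 48.7 CPM in the control libraries and 47.4, 38.0 and 40.8 CPM in the PDZK1 libraries. The groups did not overlap, although control replicate 3 and PDZK1 replicate 1 were close. A log2 fold change of -0.39 (SE 0.10, 95% interval -0.62 to -0.16, unadjusted p 0.00444) did not pass the threshold (edgeR adjusted p 0.0800). DESeq2 called it (adjusted p 0.00405), as did edgeR without control replicate 3 (-0.47, adjusted p 0.0130). The other 14 of its 16 refits did not call it. Among these were the fits on FPKM (limma adjusted p 0.178 to 0.217) and edgeR with a replicate block (adjusted p 0.1255).

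MYLIP, the ligase gene induced by LXR, was listed with few counts, 109 in its lowest library (control replicate 3) and 208 in its highest (PDZK1 replicate 1). It stood at 5.73, 5.11 and 3.95 CPM in control and at 6.49, 5.49 and 5.52 CPM in PDZK1. MYLIP had a log2 fold change of 0.24 (SE 0.16, 95% interval -0.13 to 0.61, edgeR adjusted p 0.507), and it was 0.11 without control replicate 3. ABCA1 and MYLIP, both LXR targets, therefore had fold changes on opposite sides of 0, and only that of ABCA1 had an interval that did not include 0. STARD4, a carrier of sterol between membranes, ranged over 140 to 170 CPM in control and 143 to 157 CPM in PDZK1 (-0.056, adjusted p 0.743).

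The mevalonate pathway turns acetyl-CoA into the isoprenoid units of cholesterol. All 7 of its genes were tested, 0 passed the threshold, and the fold changes ran from -0.16 for MVD to -0.033 for MVK with a median of -0.073. HMGCS1, which makes the HMG-CoA that statins block from reduction, stood at 611, 586 and 434 CPM in control and at 509, 440 and 509 CPM in PDZK1. MVD, the decarboxylase that makes isopentenyl diphosphate, stood at 111, 112 and 75.5 CPM in control and at 90.9, 83.5 and 92.9 CPM in PDZK1. In both genes control replicate 3 was the lowest library and the other controls were the highest, with the PDZK1 libraries between.
FDPS, which builds farnesyl diphosphate, had the highest level of the pathway per length, 308 ± 51.5 FPKM in control and 286 ± 23.3 FPKM in PDZK1 (SD, n = 3 each). Its CPM were 439, 451 and 329 in control and 386, 344 and 389 in PDZK1. IDI1, the isomerase, stood at 403, 395 and 301 CPM against 352, 336 and 357 CPM. ACAT2, the thiolase of the pathway's entry, stood at 235, 235 and 189 CPM against 215, 200 and 213 CPM. The kinase genes MVK and PMVK had fold changes of -0.033 and -0.034. MVK ranged over 31.6 to 37.9 CPM in control and 33.6 to 35.6 CPM in PDZK1, again with control replicate 3 lowest, while PMVK ranged over 27.9 to 29.4 CPM and 26.4 to 30.9 CPM and had its lowest value in PDZK1 replicate 1. FDPS has 8 numbered pseudogenes, so its counts are uncertain, and genes on the other strand overlap the exons of ACAT2, HMGCS1, MVK, IDI1 and FDPS.

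The genes of squalene and the sterol ring had the median fold change nearest to 0 of the 5 groups. All 11 were tested and 0 passed the threshold, with 8 fold changes below 0, 3 above and a median of -0.030. SQLE, the epoxidase that oxidises squalene and a control point of the pathway, stood at 292, 283 and 228 CPM in control and at 254, 225 and 263 CPM in PDZK1 (log2 fold change -0.11, SE 0.11, 95% interval -0.39 to 0.16, edgeR adjusted p 0.683). The lowest library for SQLE was PDZK1 replicate 2, just under control replicate 3. LSS, which closes the ring to lanosterol, stood at 433, 437 and 332 CPM against 387, 340 and 391 CPM. MSMO1, which removes methyl groups from the ring, stood at 721, 727 and 577 CPM against 667, 626 and 676 CPM and had the highest level of the group per length, 284 ± 35.7 FPKM in control and 280 ± 11.5 FPKM in PDZK1 (SD, n = 3 each).
CYP51A1, the lanosterol demethylase, stood at 429, 432 and 336 CPM in control and at 399, 367 and 407 CPM in PDZK1. FDFT1, which joins farnesyl units into squalene, varied less, over 461 to 515 CPM in control and 480 to 499 CPM in PDZK1 (-0.024, 95% interval -0.13 to 0.081). The reductase gene TM7SF2 ranged over 68.2 to 82.6 CPM against 67.8 to 75.5 CPM, the dehydrogenase gene NSDHL over 66.8 to 76.1 CPM against 70.2 to 74.7 CPM, and the isomerase gene EBP over 82.5 to 89.7 CPM against 82.2 to 83.3 CPM. In EBP the highest PDZK1 value was only just above control replicate 3.
The 3 genes of the group with a fold change above 0 were HSD17B7 (0.12, adjusted p 0.447), SC5D (0.097, adjusted p 0.645) and DHCR7 (0.0018, adjusted p 0.997). HSD17B7, a keto-reductase, stood at 29.6, 31.2 and 27.8 CPM against 33.7, 29.2 and 33.5 CPM. SC5D, the desaturase near the end of the pathway, stood at 151, 166 and 131 CPM against 160, 152 and 168 CPM. DHCR7, which reduces 7-dehydrocholesterol, stood at 362, 363 and 286 CPM against 355, 323 and 334 CPM. CYP51A1 has 3 numbered pseudogenes and HSD17B7 has 2. On the same strand, TM7SF2 shares exon positions with VPS51, and CYP51A1 with 2 other annotated genes. Genes on the other strand overlap the exons of FDFT1, LSS and CYP51A1. The counts of these genes are therefore uncertain.

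All 7 genes of fatty acid synthesis had fold changes below 0, from -0.15 for FADS1 to -0.0061 for ACLY with a median of -0.096, and 0 passed the threshold. SCD, the desaturase that makes oleate from stearate, was the most abundant of all 34 genes per length, at 344 ± 63.4 FPKM in control and 325 ± 20.4 FPKM in PDZK1 (SD, n = 3 each). It stood at 2150, 2196 and 1552 CPM in the control libraries and at 1952, 1729 and 1860 CPM in the PDZK1 libraries (log2 fold change -0.090, SE 0.15, 95% interval -0.46 to 0.28, edgeR adjusted p 0.820). FASN, the synthase of palmitate, stood at 671, 711 and 486 CPM against 599, 534 and 576 CPM (-0.13, SE 0.16, 95% interval -0.53 to 0.28, adjusted p 0.751). For SCD and FASN alike, the range of the control libraries enclosed all PDZK1 libraries.
FADS1 and FADS2, the desaturases of polyunsaturated fatty acids, lie head to head on chromosome 11 and overlap on opposite strands. FADS1 stood at 359, 370 and 320 CPM in control and at 315, 305 and 321 CPM in PDZK1, so that PDZK1 replicate 3 was just above control replicate 3 (-0.15, SE 0.053, unadjusted p 0.0166, edgeR adjusted p 0.161). FADS2 stood at 568, 578 and 494 CPM against 512, 509 and 511 CPM, with little spread among the PDZK1 libraries (-0.099, adjusted p 0.408). FADS2 also shares exon positions with FEN1 on the same strand, and numbered pseudogenes of FADS2 (1) and SCD (1) are annotated. ACLY, which makes cytosolic acetyl-CoA from citrate, ranged over 392 to 485 CPM in control and 429 to 465 CPM in PDZK1. ACACA, the carboxylase that makes malonyl-CoA, ranged over 201 to 238 CPM and 203 to 214 CPM, and the elongase gene ELOVL6 over 128 to 156 CPM and 132 to 145 CPM.

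**Figure D2:**
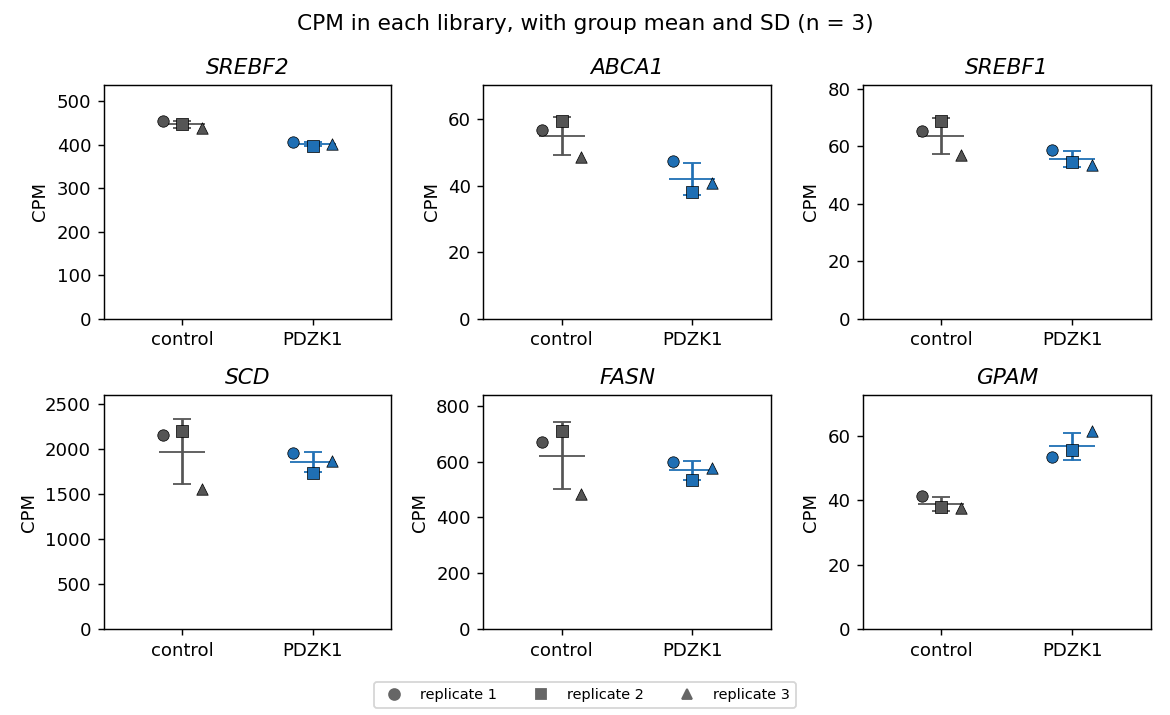
CPM of 6 genes in each library (vertical axis from 0), with circles, squares and triangles for replicates 1, 2 and 3, and bars for the group mean and SD (n = 3). SREBF2 and ABCA1 do not overlap between the groups, SREBF1, SCD and FASN overlap because control replicate 3 (triangle) is low, and GPAM, of the related genes, is higher in PDZK1 (53.4 to 61.5 CPM against 37.5 to 41.2 CPM).

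Much of the spread among the control libraries lay between control replicate 3 and the other controls. This pattern was noticed in the data and is given as a description. Control replicate 3 was the lowest of the 6 libraries in 23 of the 33 genes (69.7%), against 21.9% of all genes tested. Relative to the mean of control replicates 1 and 2, its level was lower in 31 of the 33 genes with a median of -0.27 log2 units, where the median of all genes was -0.0024 and 9.22% of all genes lay at or below -0.27. The largest gaps were in MVD (-0.56), FASN (-0.51), SCD (-0.49), HMGCS1 (-0.46) and FDPS (-0.44). Gaps near 0 were found in PMVK (0.037), SCAP (0.073), INSIG2 (-0.013) and SREBF2 (-0.043).

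**Figure D3:**
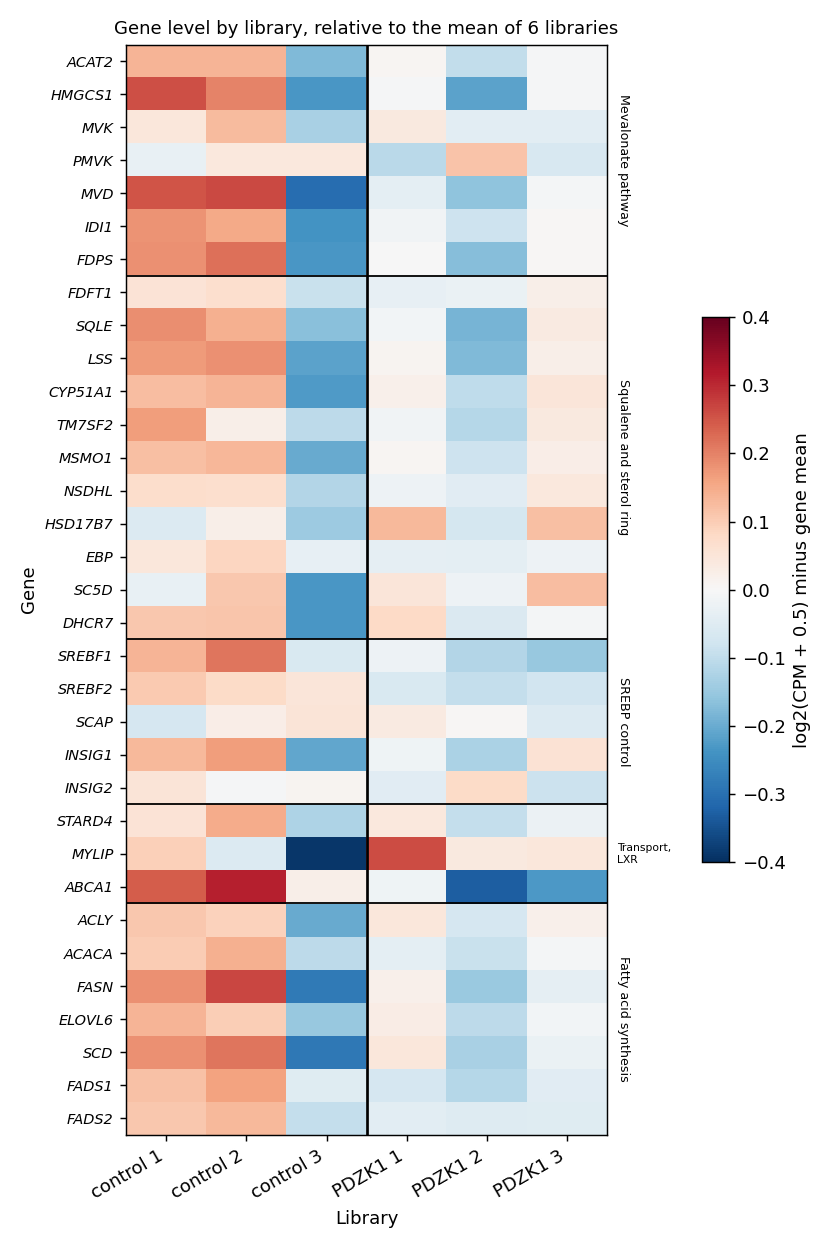
Level of each of the 33 tested genes (rows, by role) in each library (columns), as log2(CPM + 0.5) minus the mean of the gene over 6 libraries, red above and blue below the mean. Control replicate 3 is blue in most rows, and its median deviation of -0.15 lies below those of the PDZK1 libraries (-0.094 to -0.0053), while control replicates 1 and 2 are red (0.12 and 0.13).

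In 26 of the 33 genes (78.8%) control replicates 1 and 2 both lay above all PDZK1 libraries, an order found in 20.3% of all genes. In 20 of them (60.6% of the 33) control replicate 3 also lay below all PDZK1 libraries, against 3.14% of all genes. The median deviation of control replicate 3 from the mean of the 6 libraries was -0.23 for the mevalonate pathway, -0.17 for squalene and the sterol ring, -0.15 for fatty acid synthesis and -0.12 for the 3 tested genes of sterol transport and LXR targets, and it was 0.0097 for the 5 genes of SREBP control. These values of the lists are a description, and differences between lists were not tested. Within SREBP control the gap to the other controls was -0.36 in INSIG1 and -0.24 in SREBF1. Among the PDZK1 libraries replicate 2 was the lowest, with a median of -0.094 over the 33 genes. Control replicate 3 was also the shallowest library and the lowest on the second principal component, where PDZK1 replicate 2 was next, and the part of either in this pattern was not tested.

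**Figure D4:**
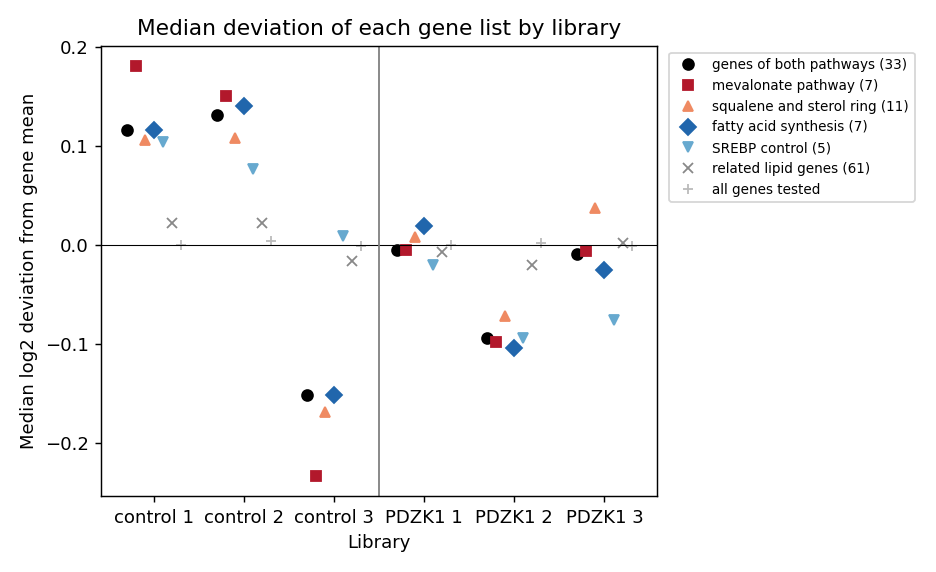
Median over the genes of each list of the log2 deviation from the gene's mean over 6 libraries, per library, with the number of genes in brackets and controls left of the grey line. The enzyme lists spread from 0.18 to -0.23 among the controls, the SREBP control list lies at 0.0097 in control replicate 3, and the related lipid genes stay between -0.020 and 0.023 in all libraries.

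Without control replicate 3 (2 control against 3 PDZK1 libraries), edgeR called 12 of the 33 genes, all lower, against 3.81% of 13844 genes called lower in the same fit. The median fold change was -0.14, and 24 genes had an unadjusted p under 0.05, all lower, where 11.0% of all genes did so in that direction. In the mevalonate pathway 4 of 7 genes were called, namely ACAT2 (-0.17, adjusted p 0.0249), MVD (-0.33, 0.00244), IDI1 (-0.20, 0.00810) and FDPS (-0.26, 0.0258). In fatty acid synthesis 5 of 7 were called, namely ACACA (-0.17, 0.0181), FASN (-0.28, 0.0112), SCD (-0.23, 0.0178), FADS1 (-0.21, 0.00374) and FADS2 (-0.17, 0.00812). SREBF1, SREBF2 and ABCA1 made up the rest, and 0 of the 11 genes of squalene and the sterol ring were called, although 7 of these had an unadjusted p under 0.05 and were lower. SCAP (0.016), INSIG2 (-0.041) and PMVK (-0.022) stayed near 0. The fitted change was under 1.5-fold in each of the 12. In each of them control replicate 3 lay below the mean of the other controls, so leaving it out raised the control mean. The SE also fell in each, for example from 0.17 to 0.049 in MVD and from 0.15 to 0.047 in SCD. The 12 calls are therefore a description and no separate evidence of a difference. Without any other single library, 0 of the 33 genes were called, where 1.31% to 2.12% of all genes were called in the same fits. At shares so low, 0 calls are not particular to these genes. The medians of the 33 genes in those fits ran from -0.083 to -0.021.

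A further 64 genes of neighbouring pathways were examined, of which 61 were tested and 4 passed the threshold, 2 higher and 2 lower, against 3.83% of all genes. Their median fold change was -0.020. GPAM (ENSG00000119927), which starts triglyceride and phospholipid synthesis by acylating glycerol 3-phosphate, stood at 41.2, 37.7 and 37.5 CPM in control and at 53.4, 55.6 and 61.5 CPM in PDZK1. All PDZK1 libraries lay above all control libraries, and control replicate 3 was no exception. GPAM rose by 0.55 on the log2 scale (SE 0.067, 95% interval 0.40 to 0.70, edgeR adjusted p 0.00224), and it stayed past the adjusted threshold in its 16 refits, although its fold change is under 1.5-fold and it is not called where that is also required. It was the only one of the 6 glycerolipid genes called.

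Of 21 tested genes of fatty acid handling, 3 were called. ELOVL4, an elongase of very long fatty acids that is best known from the retina, stood at 19.6, 21.1 and 19.1 CPM in control and at 24.2, 26.9 and 24.5 CPM in PDZK1 and rose by 0.34 (SE 0.071, adjusted p 0.0304). ACSL1, which activates fatty acids with coenzyme A, stood at 102, 108 and 105 CPM against 94.9, 92.4 and 90.3 CPM and fell by 0.18 (SE 0.040, adjusted p 0.0352). FADS3, a neighbour of FADS1 and FADS2, stood at 129, 123 and 124 CPM against 116, 113 and 110 CPM and fell by 0.15 (SE 0.036, adjusted p 0.050, just under the threshold before rounding). ELOVL4 lost the threshold in 9 of 16 refits, ACSL1 in 10 and FADS3 in 14. Without control replicate 3 there were 5 calls, where 6.32% of all genes were called in either direction, adding SLC25A1, the citrate carrier (-0.13, adjusted p 0.0405), which is named after its value was seen.

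In the other neighbouring groups 0 genes were called, among 9 tested of the isoprenoid branches, 14 of sterol handling, 8 of SREBP processing and 3 of LXR. An unadjusted p under 0.05 was reached by 11 of the 61, 3 higher and 8 lower, a share near the 17.5% of all genes. SCARB1, the lipoprotein receptor gene whose protein binds PDZK1, stood at 146, 149 and 148 CPM in control and at 151, 147 and 148 CPM in PDZK1. SCARB1 had a log2 fold change of 0.010 (SE 0.031, 95% interval -0.060 to 0.081, edgeR adjusted p 0.910), so a change of 1.2-fold lay outside the interval on both sides. On log2(FPKM + 1) its fold change was 0.11 (SE 0.088, limma adjusted p 0.634), larger and less precise than on counts.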

How the data were processed

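Estimated counts per gene and FPKM were deposited by the authors for 6 libraries of total RNA. The submitters' processing notes name fastp 0.20.1, HISAT2 2.2.1 and GRCh38, and the counting program and its strandedness are not given in the sources used here. The deposited estimated counts were whole numbers that were not scaled for depth. The FPKM deposited by the authors were scaled to transcript length and mapped fragments. Each table has 3 value columns that match no sample and were not used. Of 21314 entries, 853 assembled loci (0.519% to 0.536% of counts) were left out.

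Counts were tested in edgeR 4.0.16 (R 4.3.3) with filterByExpr, TMM scaling and the robust quasi-likelihood test, control against PDZK1, with Benjamini-Hochberg adjustment over 13645 genes and a threshold of 0.05. CPM used TMM-scaled library sizes, intervals are 95% model intervals, and ± is the SD over 3 libraries. A count of 0 allows up to 3 counts, and this covers counting error only. Counting error alone did not account for the spread within groups (chi-square per degree of freedom 6.55 to 18.8). The test was checked on simulated data.

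Alternatives were DESeq2 1.42.0, limma 3.58.1 on log2(FPKM + 1) or log2(FPKM + 0.1) at a mean FPKM of at least 0.5 or with no filter, other scalings, count filters and thresholds, assembled loci kept, a replicate block, and each library left out. The members, lists and tests were chosen with earlier results of these data known. Full statistics were given for members past the threshold or without overlap, and for SREBF1, SREBF2, SCAP, INSIG1, INSIG2, SQLE, FASN, SCD, ABCA1 and MYLIP, with ABCG1 named though not tested. Related genes were named when past the threshold, with SCARB1 added. Coordinates are from GENCODE release 29 (GRCh38), and motif matches were read from RefSeq promoter windows. The summaries of control replicate 3 and of library order were added after seeing the data.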

Additional observations from a re-analysis of the deposited data

How the results depend on the processing

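Of the 33 tested genes, 1 was called with other scaling by RLE, with count filters of at least 1 count in any library or 10 in every library, and with assembled loci kept. The number was 2 with DESeq2 (SREBF2 and ABCA1) and 0 with library totals only, with the 3 fits on FPKM, with a fold change above 1.5 also required and with the replicate block. It ran from 0 to 12 when each library was left out. The 12 came without control replicate 3, where 6.32% of all genes were called. Without any other library it was 0, where 1.31% to 2.12% of all genes were called. The related genes called numbered 0 with the fold change, 2 with library totals only, 1 on FPKM, 1 with the replicate block and 1 to 5 when each library was left out. The median of the 33 genes stayed below 0 in all its alternatives (-0.14 to -0.021, -0.059 with the replicate block). PDZK1 stayed between 4.92 and 7.21. The stricter criterion bears on the counts with the fold change. For the others, with and without a library, the cause was not tested.

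The labels do not say whether replicate numbers pair the libraries. The deviations from the group means of libraries with equal numbers were correlated at -0.041, -0.091 and -0.16 (over genes). With 3 libraries a group and control replicate 3 far from the other controls, these values cannot decide whether libraries were paired. With the replicate block SREBF2 was not past the threshold (-0.15, adjusted p 0.160), nor were ELOVL4 (0.34), ACSL1 (-0.18) and FADS3 (-0.15), while GPAM was (0.55, adjusted p 0.0262).

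Fold changes near 0 changed sign in 14 genes, and these values were not past the threshold, so no direction should be read from them. With library totals only NSDHL was 0.0012, SCAP 0.0095 and ACLY 0.012. On FPKM with a pseudocount of 1, 0.1 and no filter, SCAP was 0.022, 0.023 and 0.022, STARD4 was 0.014, 0.014 and 0.014, and ACLY was 0.012, 0.012 and 0.012. When each library was left out, MVK ran from -0.10 to 0.025, PMVK from -0.10 to 0.012, IDI1 from -0.20 to 0.00072, FDFT1 from -0.073 to 0.0041 and CYP51A1 from -0.14 to 0.031. TM7SF2 ran from -0.13 to 0.012, MSMO1 from -0.14 to 0.017, NSDHL from -0.076 to 0.015, DHCR7 from -0.10 to 0.059 and SCAP from -0.044 to 0.017. INSIG1 ran from -0.17 to 0.0022, STARD4 from -0.13 to 0.0061, ACLY from -0.10 to 0.046 and SCARB1 from -0.00081 to 0.021. With 3 libraries a group, intervals of the 33 genes reached 0.076 to 0.44 log2 units to each side. These intervals are not adjusted for the number of genes tested, so they do not give the smallest difference that could be called. ABCA1 had an interval that did not include 0 (-0.62 to -0.16) and was not called (edgeR adjusted p 0.0800).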
